A study of Mus musculus with 2 samples.

Results

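Cardiac macrophages secrete growth factors that act on cardiomyocytes, vessels and fibroblasts, and 10 such genes were described here in the CD45+ cells of the mouse heart. They were chosen by name from the 27809 genes of the matrix, with earlier results of these data known: *Igf1*, *Hbegf*, *Ereg*, *Vegfa*, *Vegfb*, *Pdgfa*, *Pdgfb*, *Pdgfc*, *Gdf15* and *Hgf*. All mice were male, on a C57BL/6 background and aged 8 weeks. The 5 groups were wild type (WT) mice after sham surgery, CD3e-/- mice after sham surgery, WT mice after transverse aortic constriction (TAC, a pressure overload of the left ventricle), CD3e-/- mice after TAC, and WT mice given an antibody against CD8 around their TAC surgery. CD3e-/- mice lack this part of the T cell receptor complex in every cell from birth and have no mature T cells. CD45+ cells, that is leukocytes, were collected with magnetic beads after enzymatic digestion of the heart and a Percoll step 1 week after surgery. The number of mice behind each group is not given in the sources used here.

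IGF-1 signals through a receptor tyrosine kinase to growth and survival of cardiomyocytes, and HB-EGF and epiregulin signal through the EGF receptor family. VEGF-A drives the growth of vessels, the PDGFs act on fibroblasts and on the mural cells of vessels, and HGF acts through MET on endothelial and epithelial cells. GDF-15 is a stress-induced member of the TGF-β superfamily whose receptor lies in the hindbrain.

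Hashtags marked the group of each cell, and all cells went into 1 pooled library, so that each group is 1 sample. No difference between groups could be set against a spread between replicates, and no test was possible. The kept cells numbered 1000 in WT sham, 835 in CD3e-/- sham, 1615 in WT TAC, 919 in CD3e-/- TAC and 894 in the TAC group labelled CD8-depleted, with 91899777 to 208758777 reads per group and a median of 75442 to 117788 reads per cell. *Cd3g*, another gene of the T cell receptor complex, had 45.6, 0.555, 17.5, 0.0661 and 22.5 reads per 1000000 reads (CPM) over all kept cells in this order of groups, and was thus nearly absent in both CD3e-/- groups. *Cd3e* itself was lower there but not absent, at 17.8, 3.73, 10.8, 5.64 and 13.6 CPM. By cells with a read, *Cd3e* was not rarer in CD3e-/- TAC (83 of 919) than in WT TAC (103 of 1615). Cells with a read of *Cd8a* or *Cd8b1* numbered 10, 2, 19, 4 and 9. The depletion is therefore not visible as fewer such cells than in WT sham or WT TAC at this depth, and the group is called by its label throughout.

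Monocytes and macrophages were gated as cells with more than 762 CPM of *Csf1r*, the receptor for the macrophage growth factor CSF1, and more than 5635 CPM of *Lyz2*, the lysozyme of myeloid cells. These limits are the 95th percentile of 457 B cell-gated cells, which hold such reads as background. The gate held 380, 274, 681, 377 and 378 cells in the 5 groups, 2090 in all. Limits of 200 CPM for *Csf1r* and 1000 CPM for *Lyz2* gave a wide gate of 3436 cells that contained all 2090. Since 37.2% of the kept cells lay within 2-fold of the *Csf1r* limit, the value in the wide gate is given beside results that differ there. The gated cells were parted by that marker among *Lyve1*, *Gpnmb*, *Spp1* and *Ly6c2* which stood highest over 100 CPM. This gave 171, 50, 335 and 374 cells and left 1160 cells with none of them, called unmarked here. Cells above 100 CPM of *Cd209a* formed a class of their own with 449 cells. In the wide gate the limits of these 5 markers were 200 CPM in place of 100, and the *Cd209a* class held 411 cells. Class values of the wide gate thus differ in marker limits as well.

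The *Lyve1*, *Gpnmb* and *Ly6c2* classes were checked against marker lists, and no list stood for the *Spp1* or the unmarked class. The summed level of 5 genes of resident macrophages (*Folr2*, *Cd163*, *Timd4*, *Gas6* and *Cbr2*) was 4022 CPM in the *Lyve1* class and 80.7 to 612 CPM in the others of the gate. The 5 genes of lipid-associated macrophages summed to 14589 CPM in the *Gpnmb* class and 2022 to 6246 CPM in the others. The 6 monocyte genes, which include *Ly6c2* itself, summed to 8847 CPM in the *Ly6c2* class and 372 to 2083 CPM in the rest. The sum of the 8 macrophage genes was lowest there, at 3678 CPM against 11816 to 17828 CPM. Of these, however, *Fcgr1* was highest in the *Ly6c2* class, at 438 CPM against 211 to 302 CPM. *Cd68* was at 627 CPM there and 597 CPM in the *Lyve1* class. The others on the list were lowest in the *Ly6c2* class. The 5 genes of Ly6c-low monocytes (*Cd300e*, *Ace*, *Treml4*, *Nr4a1* and *Spn*) were also highest in the *Ly6c2* class, at 806 CPM against 101 to 487 CPM. Of this sum 498 CPM were *Nr4a1*. The lists thus do not show that the *Ly6c2* class is free of Ly6c-low monocytes. B cell genes were at 0 to 4.10 CPM in the 5 classes. The share of the *Lyve1* class in the gate was 15.8% and 10.9% in the sham groups and 6.61%, 2.65% and 6.88% in the TAC groups, while the *Ly6c2* class was 7.63% and 12.8% in the sham groups and 17.0%, 27.1% and 24.3% in the TAC groups.

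Of the 10 members, up to 7 differed by 2-fold or more between a class and the other classes, and at most 2 between a pair of groups of mice. Of all genes tested, 0.882% to 5.54% were higher and 1.47% to 9.51% lower in the contrasts of classes. Between groups of mice these shares were 0.419% to 3.62% and 0.353% to 2.31%. *Igf1*, *Pdgfc* and *Vegfb* were highest in the *Gpnmb* and *Lyve1* classes. *Vegfa* was highest in the *Ly6c2* class, where *Igf1*, *Pdgfb* and *Pdgfc* were lowest among the classes of the gate. With limits at the 99th percentile of B cell-gated cells, which kept 20 of the 374 cells of the *Ly6c2* class, no *Vegfa* read was left in that class, and *Vegfa* was highest in the unmarked class, at 7.49 CPM. A member was counted as higher or lower when log2(CPM + 1) differed by 2-fold or more and one of both sides had 10 CPM or more. All intervals cover counting error only, since reads are not molecules and cells of 1 library are not replicates. Levels are not compared between genes, because the values are not per length and the authors' correction of errors left a lowest count of 1 read for some members and of 6 or 7 for *Igf1*, *Hbegf*, *Vegfa* and *Gdf15*.

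**Figure D1:**
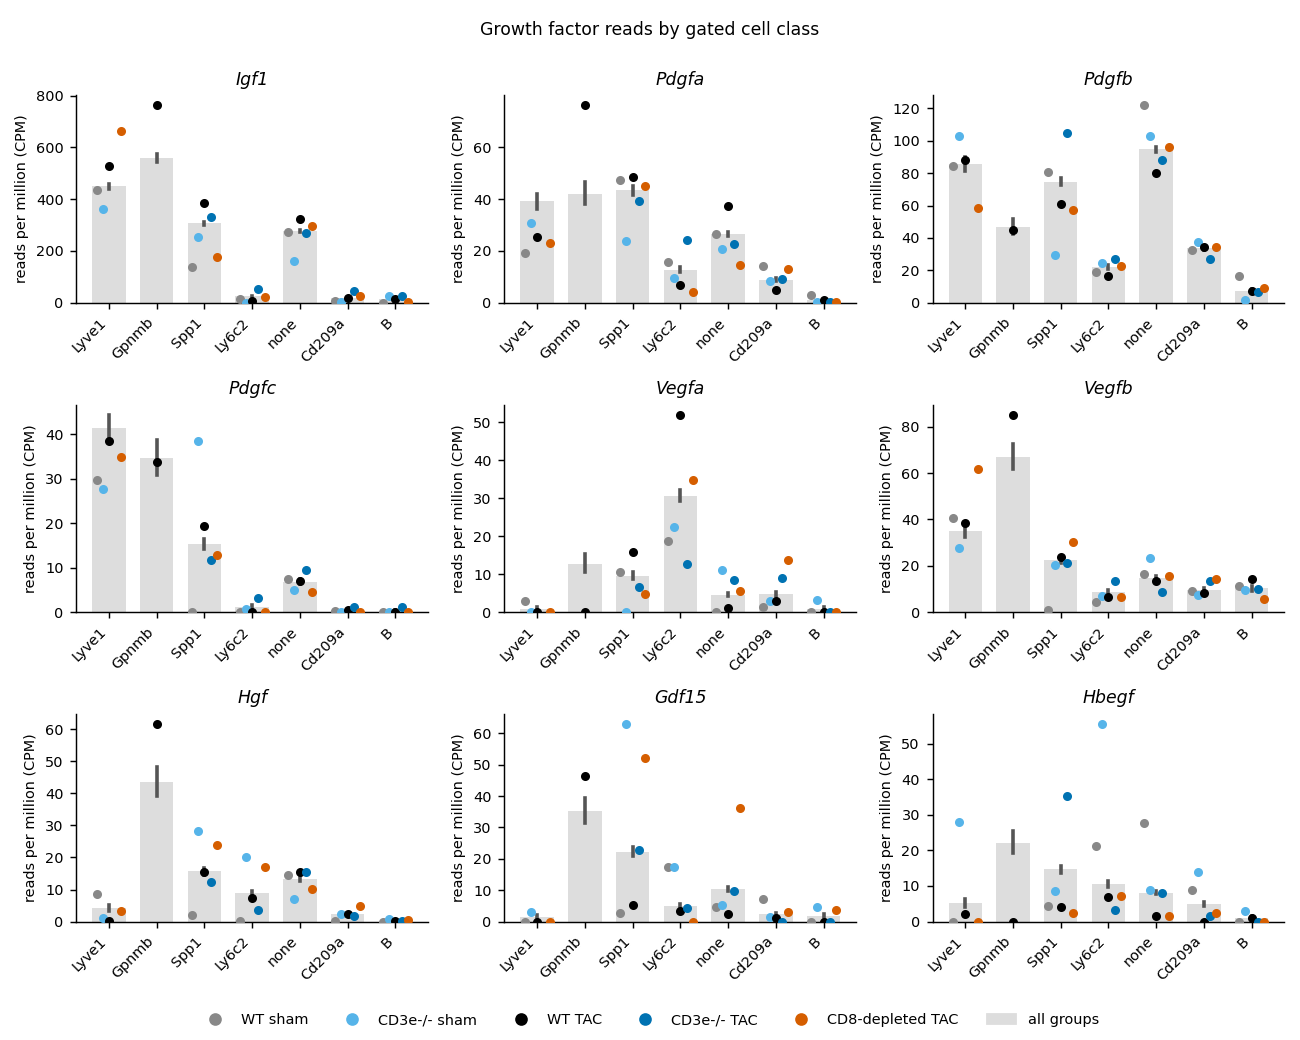
Level of each member but *Ereg* by cell class in CPM, where none is the unmarked class and B the B cell-gated cells. Bars are the sum over all 5 groups with the 95% Poisson interval (counting error only), and points are single groups with 20 or more cells in the class. *Igf1* stood at 560 CPM in the *Gpnmb* class and 25.1 CPM in the *Ly6c2* class, and *Vegfa* at 12.8 and 30.6 CPM.

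The 250 bases before the start sites of *Igf1*, *Pdgfc* and *Vegfa* are printed because the first and the second of these genes were low in the *Ly6c2* class in which *Vegfa* was high. They are from RefSeq (GRCm38.p6) and read 5′ to 3′ on the strand of the gene. *Igf1* is at chr10:87860861-87861110 on the plus strand, *Pdgfc* at chr3:81036166-81036415 on the plus strand and *Vegfa* at chr17:46032378-46032627 on the minus strand. The RefSeq table held an entry for 7 of the 10 members. Capitals mark matches to the letters searched on both strands.
Igf1: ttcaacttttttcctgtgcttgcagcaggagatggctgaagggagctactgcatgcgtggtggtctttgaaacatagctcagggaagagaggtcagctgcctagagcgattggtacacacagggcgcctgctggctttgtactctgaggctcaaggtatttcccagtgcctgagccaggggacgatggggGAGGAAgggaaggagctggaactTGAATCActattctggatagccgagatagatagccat
Pdgfc: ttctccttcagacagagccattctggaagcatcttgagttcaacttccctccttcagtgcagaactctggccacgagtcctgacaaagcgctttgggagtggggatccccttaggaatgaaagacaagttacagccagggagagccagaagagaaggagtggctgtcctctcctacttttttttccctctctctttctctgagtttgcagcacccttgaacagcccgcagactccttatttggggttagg
Vegfa: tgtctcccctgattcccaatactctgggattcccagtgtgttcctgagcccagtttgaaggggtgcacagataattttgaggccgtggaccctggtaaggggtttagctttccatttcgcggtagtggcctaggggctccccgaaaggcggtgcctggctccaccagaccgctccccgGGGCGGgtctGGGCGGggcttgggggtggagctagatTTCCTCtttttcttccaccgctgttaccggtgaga

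The *Igf1* window held the core GAGGAA of the myeloid factor PU.1 at positions -60 to -55 from the start and a match to the AP-1 motif TGANTCA at -37 to -31. The *Vegfa* window held 2 GC boxes (GGGCGG) at -72 to -67 and -62 to -57, and the PU.1 core on the other strand at -35 to -30. No match lay in the *Pdgfc* window. RefSeq lists another start site of *Vegfa*, and its promoter, which is not printed, held 1 match to ACGTG and 1 to GGGCGG. None of the 3 printed windows held the core ACGTG of hypoxia-inducible factors, the E-box CACGTG, which contains that core, or TATAAA. In the 250 bases before the start, 23.3% of all 32851 RefSeq promoters held GAGGAA, 6.75% TGANTCA, 32.7% GGGCGG, 16.6% ACGTG, 6.02% CACGTG and 12.4% TATAAA. A match is a run of letters and not a bound site.

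Most *Igf1* reads came from monocytes and macrophages. The wide gate held 92.1% of all *Igf1* reads but 67.0% of all reads. For the other members this share ran from 63.3% (*Hbegf*) and 66.1% (*Ereg*), under that of all reads, to 95.6% (*Pdgfc*). The *Igf1* level over all groups was 560 CPM (545 to 576) in the *Gpnmb* class, 450 (441 to 460) in the *Lyve1* class, 306 (301 to 311) in the *Spp1* class, 277 (274 to 280) in the unmarked class and 25.1 (23.9 to 26.5) in the *Ly6c2* class. The *Cd209a* class had 17.6 CPM and the B cell-gated cells 16.0 CPM. In the *Ly6c2* class *Igf1* was at 15.6, 0, 5.44, 52.1 and 22.3 CPM in WT sham, CD3e-/- sham, WT TAC, CD3e-/- TAC and the TAC group labelled CD8-depleted, and in the unmarked class at 273, 163, 323, 268 and 297 CPM. These 2 ranges did not overlap. The *Lyve1* class had 436, 363, 527, 234 and 664 CPM, the fourth from 10 cells. Against the other classes, the log2 ratio in the *Ly6c2* class was -3.59, and it was negative in 5 of 5 groups. The ratio of the *Lyve1* class to the others was 0.96, just inside 2-fold, and 1.36 in the wide gate.

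The order of the *Gpnmb* and *Lyve1* classes in *Igf1* was not stable, since 5 of the 50 *Gpnmb* cells held 39.6% of its reads there. Without the 5 cells of most reads the *Lyve1* class was at 401 CPM and the *Gpnmb* class at 394. At the 99th percentile limits they were at 546 and 532 CPM. The share of cells with an *Igf1* read gives no weight to single rich cells. It was alike in these classes and fell over the others in the same order. Each cell was thinned to 30000 reads, since the median depth ran from 79363 to 163612 reads in the classes of the gate and was 52799 in B cell-gated cells. Of the *Lyve1* class 70.7% (exact binomial interval 63.1 to 77.4) held a read, of the *Gpnmb* class 71.4% (56.7 to 83.4), of the *Spp1* class 45.1% (39.6 to 50.7), of the unmarked class 41.8% (38.9 to 44.8) and of the *Ly6c2* class 5.66% (3.54 to 8.52). Before thinning, 122 of 171 cells of the *Lyve1* class and 23 of 374 of the *Ly6c2* class held one. The B cell-gated cells, which should lack *Igf1*, had 2.24% (1.03 to 4.22), and the interval of the *Ly6c2* class overlaps theirs. Thinning left out 65 of the 2090 cells of the gate and 56 of the B cell-gated cells.

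**Figure D2:**
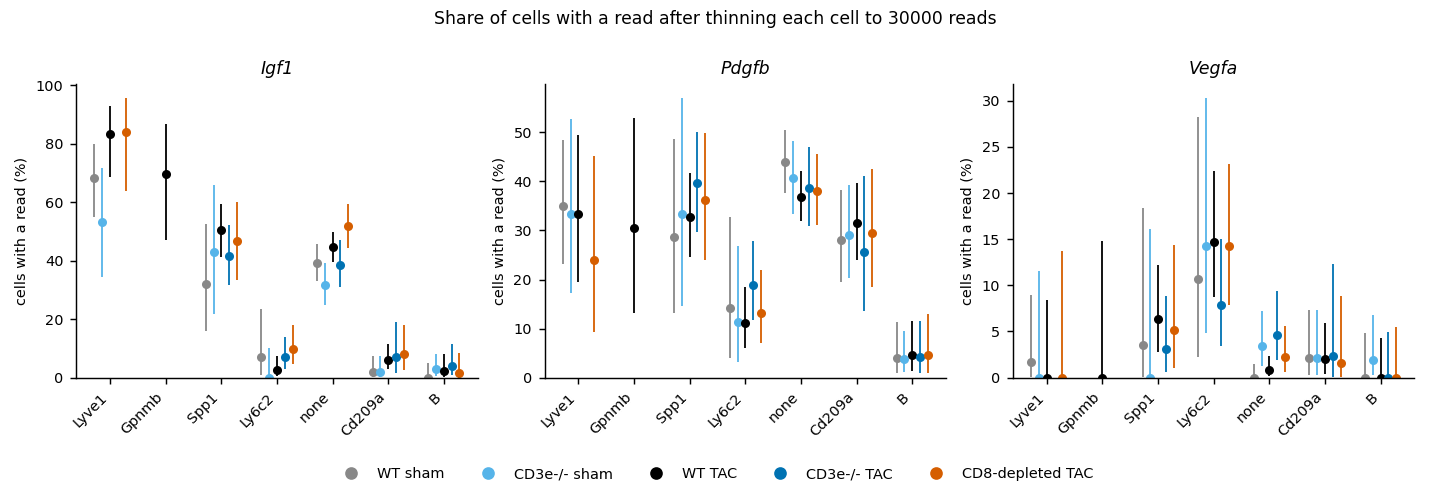
Percent of cells with a read of *Igf1*, *Pdgfb* or *Vegfa* after thinning each cell to 30000 reads, by cell class, with 1 point per group of mice with 20 or more cells and exact binomial 95% intervals (counting error only). *Igf1* is in 53.3% to 84.0% of the *Lyve1* class and 0% to 9.89% of the *Ly6c2* class of these groups, and *Vegfa* in 0% to 1.67% and 7.92% to 14.7%.

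*Vegfa*, the main angiogenic factor of the VEGF family, ran the other way. It was at 30.6 CPM (29.1 to 32.0) in the *Ly6c2* class, 12.8 in the *Gpnmb* class (2 cells with a read), 9.57 in the *Spp1* class, 4.53 in the unmarked class and 0.808 in the *Lyve1* class, where 1 of 171 cells held a read. The 2267 cells outside the main gate, the *Cd209a* class and the B cell-gated cells held 59.1% of *Vegfa* reads but 43.3% of all reads. *Vegfa* was at 17.2 CPM in them, and 1317 of them lay in the wide gate. In the *Ly6c2* class it was at 18.6, 22.4, 52.0, 12.8 and 34.9 CPM in the 5 groups, highest in WT TAC and lowest in CD3e-/- TAC. Its log2 ratio in the *Ly6c2* class was 2.20, 1.41 in the wide gate and 1.81 without the 5 cells of most reads in each sum, and it was positive in 5 of 5 groups. After thinning 12.4% (9.22 to 16.2) of the *Ly6c2* class held a *Vegfa* read, 4.57% of the *Spp1* class and 1.80% of the unmarked class, and the 0.599% of the *Lyve1* class is at the 0.499% (0.0605 to 1.79) of B cell-gated cells and counts as background. *Vegfb*, which acts through VEGFR1 and is tied to fatty acid handling more than to vessel growth, had another order, with 66.9 CPM in the *Gpnmb* class, 35.1 in the *Lyve1*, 22.6 in the *Spp1*, 14.8 in the unmarked and 8.89 in the *Ly6c2* class.

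*Pdgfc* had an order of classes close to that of *Igf1*. PDGF-C is secreted in a latent form that needs cleavage before it activates PDGFRα. It stood at 41.4 CPM in the *Lyve1* class, 34.6 in the *Gpnmb*, 15.3 in the *Spp1*, 6.88 in the unmarked and 1.18 in the *Ly6c2* class, and the wide gate held 95.6% of its reads. In the *Lyve1* class it was at 29.7, 27.8, 38.4, 89.1 and 34.8 CPM in the 5 groups, above the unmarked class (7.41, 4.99, 7.08, 9.56 and 4.57 CPM) throughout, although only 3 to 8 cells per group held a read. Its log2 ratio was 2.18 in the *Lyve1* class, 1.62 without the 5 cells of most reads. In the *Ly6c2* class 0.270% of thinned cells held a read, as in 0.249% of B cell-gated cells.

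*Pdgfa* and *Pdgfb*, whose products form the classic PDGF dimers, were spread more evenly over the macrophage classes. *Pdgfa* was at 43.3 CPM in the *Spp1* class, 42.1 in the *Gpnmb*, 39.1 in the *Lyve1*, 26.5 in the unmarked and 12.8 in the *Ly6c2* class. *Pdgfb*, the ligand that recruits pericytes, was highest in the unmarked class at 94.6 CPM, with 85.7 in the *Lyve1*, 74.8 in the *Spp1*, 47.1 in the *Gpnmb* and 22.1 in the *Ly6c2* class. Its log2 ratio in the unmarked class was 0.85, positive in 5 of 5 groups but inside 2-fold. By cells, 39.5% of the unmarked class, 35.1% of the *Spp1*, 33.5% of the *Lyve1*, 32.7% of the *Gpnmb* and 14.0% of the *Ly6c2* class held a *Pdgfb* read after thinning, against 4.24% of B cell-gated cells, so that only the *Ly6c2* class stood apart beyond the intervals. The *Cd209a* class had 29.4%.

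*Hgf* and *Gdf15* were highest in the *Gpnmb* class, except that at the 99th percentile limits *Hgf* was at 28.5 CPM in the *Ly6c2* class and 27.6 in the *Gpnmb* class. *Hgf* was at 43.6 CPM there, 15.6 in the *Spp1*, 13.2 in the unmarked, 8.79 in the *Ly6c2* and 4.15 in the *Lyve1* class. The share of thinned cells with a read was 30.6% in the *Gpnmb* class and 5.39% in both the *Lyve1* and the *Ly6c2* class, and 0 of 401 B cell-gated cells held one, which allows up to 0.748%. *Gdf15* was at 35.3 CPM in the *Gpnmb* class (10 of 50 cells), 22.3 in the *Spp1*, 10.5 in the unmarked, 4.89 in the *Ly6c2* and 1.40 in the *Lyve1* class. Its share in the *Lyve1* class, 1.20%, was at the 1.25% of B cell-gated cells. The cells outside the main gate, the *Cd209a* class and the B cell-gated cells held 62.5% of *Gdf15* reads, at 19.3 CPM.

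The EGF family members were rare. *Hbegf* was at 22.2 CPM in the *Gpnmb* class, all from 1 cell, 14.7 in the *Spp1* class (10 cells), 10.4 in the *Ly6c2* class (14 cells), 8.15 in the unmarked class (16 cells) and 5.17 in the *Lyve1* class (6 cells). No order can be read from these values, because 2.96% to 3.05% of thinned cells held a read in the *Lyve1*, *Spp1* and *Ly6c2* classes. *Ereg* had no read in the *Lyve1*, *Gpnmb* and *Ly6c2* classes, where 3 reads over the class are the limit a count of 0 allows, and 4.29 CPM in the *Spp1* class, from 5 cells. The share there, 0.610% after thinning, was at the 0.499% of B cell-gated cells.

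Counted by class, 9 members reached 10 CPM on one side of each contrast, all but *Ereg*. In the *Lyve1* class *Vegfb* and *Pdgfc* were higher and *Vegfa*, *Gdf15* and *Hgf* lower than in the other classes of the gate, where 5.12% of all tested genes were higher and 5.48% lower. In the *Gpnmb* class 6 were higher (*Igf1*, *Hbegf*, *Vegfb*, *Pdgfc*, *Gdf15* and *Hgf*) and 0 lower, against 3.89% and 9.51% of all genes. The *Hbegf* reads there were those of 1 cell, and among cells with exactly 1 marker *Hbegf* was at 0 CPM in the class. In the *Spp1* class *Gdf15* was higher and none lower, against 1.1% and 1.47%, and at the 99th percentile limits *Gdf15* was lower there instead. In the *Ly6c2* class *Vegfa* was higher and 6 were lower (*Igf1*, *Vegfb*, *Pdgfa*, *Pdgfb*, *Pdgfc* and *Gdf15*), against 4.4% and 7.06%. In the unmarked class none was higher and *Vegfa* was lower, against 0.882% and 1.52%. In the *Cd209a* class, set against the whole gate, none was higher and 7 were lower, all but *Hbegf* and *Vegfb*, against 5.54% and 7.43%.

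The median log2 ratio of the 9 members was 1.24 in the *Gpnmb* class and -1.29 in the *Ly6c2* class, while that of all genes tested was -0.15 and 0.01. It was 0.28 in the *Lyve1* class, 0.39 in the *Spp1* class, -0.28 in the unmarked class and -1.56 in the *Cd209a* class, with -0.03 to 0.02 for all genes. The *Gpnmb* class is small, and 24 of its 50 cells came from WT TAC. Without the 5 cells of most reads of each gene only *Vegfb* remained past 2-fold higher there, at 1.04, while *Igf1* was at 0.82, *Gdf15* at 0.86 and *Hgf* at 0.61. In the *Ly6c2* class, 7 members were past 2-fold with and without such cells, and 6 of them were the same.

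**Figure D3:**
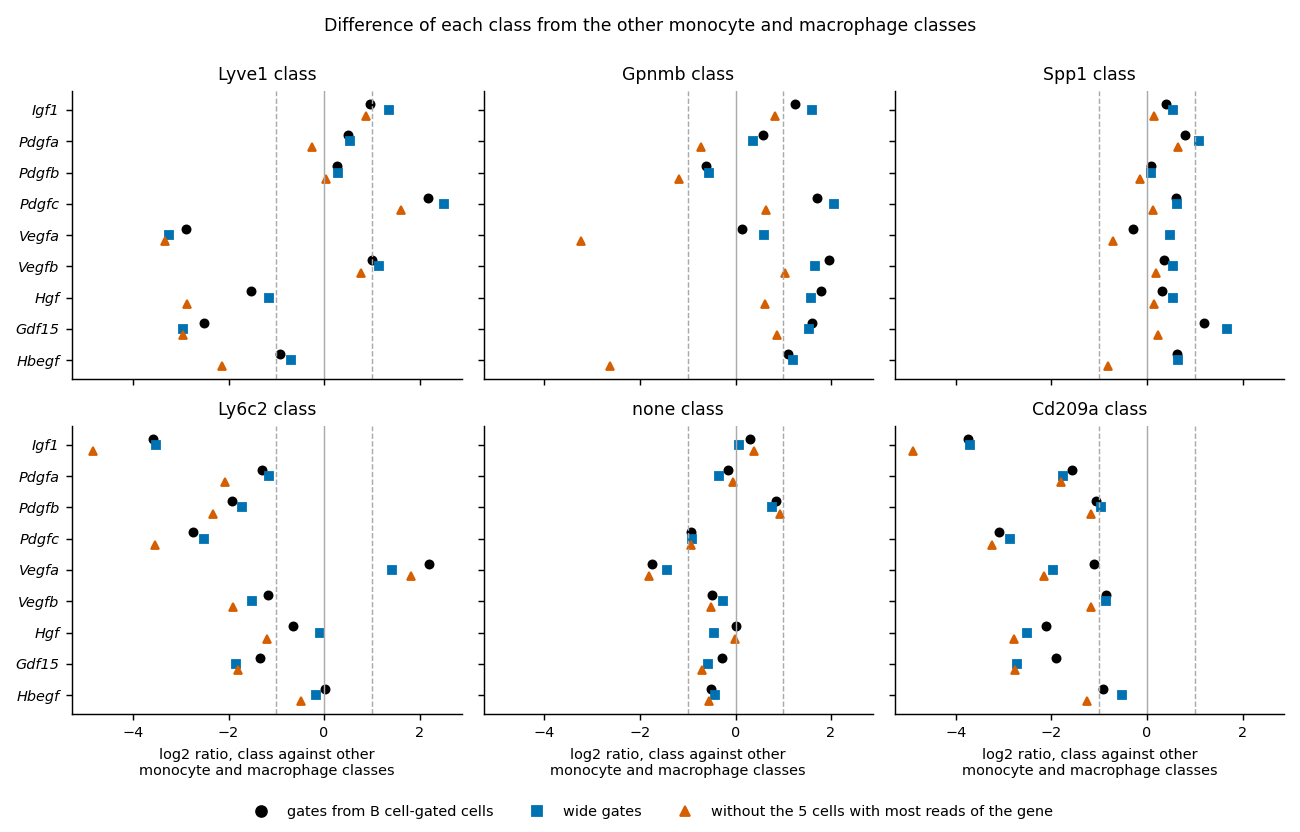
Log2 ratio of each class to the other classes of the gate for each member but *Ereg*, with 1 CPM added, and of the *Cd209a* class to the whole gate, in the main gate, in the wide gate and without the 5 cells of most reads of the gene. In the *Ly6c2* class *Igf1* is at -3.59, -3.53 and -4.84 and *Vegfa* at 2.20, 1.41 and 1.81.

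The members also met in the same cells to unlike degrees. At least 2 members were detected in 73.5% of thinned cells of the *Gpnmb* class, 53.3% of the *Lyve1*, 44.8% of the *Spp1*, 35.0% of the unmarked and 13.5% of the *Ly6c2* class, and in 1.5% of B cell-gated cells. Over the 2025 thinned cells of the gate, *Igf1* was in 38.8% of all cells but in 11.9% (5.86 to 20.8) of the 84 cells with *Vegfa*. *Pdgfc* was in 8.91% of the cells with *Igf1* and 4.84% of all, and *Vegfb* in 26.5% of the cells with *Pdgfc* and 12.2% of all. These shares mix classes and describe which cells hold both reads, at a depth at which many reads are missed.

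Between the groups of mice at most 2 members passed 2-fold in a comparison, and the shares of all genes are given below. The 6 comparisons reuse the same 5 samples, so that they are not independent of each other. *Igf1* in the gate was at 257 CPM (251 to 262) in WT sham, 167 (163 to 172) in CD3e-/- sham, 304 (300 to 308) in WT TAC, 221 (218 to 225) in CD3e-/- TAC and 226 (222 to 230) in the TAC group labelled CD8-depleted. WT TAC was highest and CD3e-/- sham lowest. The log2 ratio of TAC to sham was 0.24 in WT mice, where the wide gate gave 213 CPM on both sides, and 0.40 in CD3e-/- mice. The log2 ratio of CD3e-/- to WT was -0.61 in sham and -0.45 after TAC, and that of the labelled CD8-depleted group to WT TAC was -0.42. These 3 kept their sign in 11 of 11 other ways of processing, and none passed 2-fold. Among these ways, leaving out the filter on cells kept 2090 cells in the gate and a stricter mitochondrial filter 2089. Both could thus hardly move a ratio. The 3 ratios came close to 0 in some other ways, however. The sham ratio was -0.05 and that of the labelled CD8-depleted group -0.11 at the 99th percentile limits. The ratio of CD3e-/- to WT after TAC was -0.03 over all kept cells. The share of thinned cells with *Igf1* was 41.4%, 31.1%, 41.7%, 31.8% and 43.6%. By this measure both CD3e-/- groups were lower, and the labelled CD8-depleted group, lower in CPM, was not.

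Because the classes differ in *Igf1* and in their share of each group, levels were also set to the class shares of WT TAC. *Igf1* was then at 194, 177, 304, 244 and 237 CPM, and in both gates the *Gpnmb* class of CD3e-/- sham rests on 1 cell. In the wide gate the same step gave 181, 282, 213, 192 and 186 CPM, with CD3e-/- sham highest, so that no order of the groups at equal class shares can be read for *Igf1*. Within the unmarked class *Igf1* was at 273 CPM in WT sham and 323 in WT TAC. Within the *Spp1* class it was at 139 and 384 CPM, with 255 in CD3e-/- sham, 330 in CD3e-/- TAC and 177 in the labelled CD8-depleted group. In CD3e-/- sham 31.0% of the *Igf1* reads lay in 5 cells, and in the other groups at most 26.3%.

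**Figure D4:**
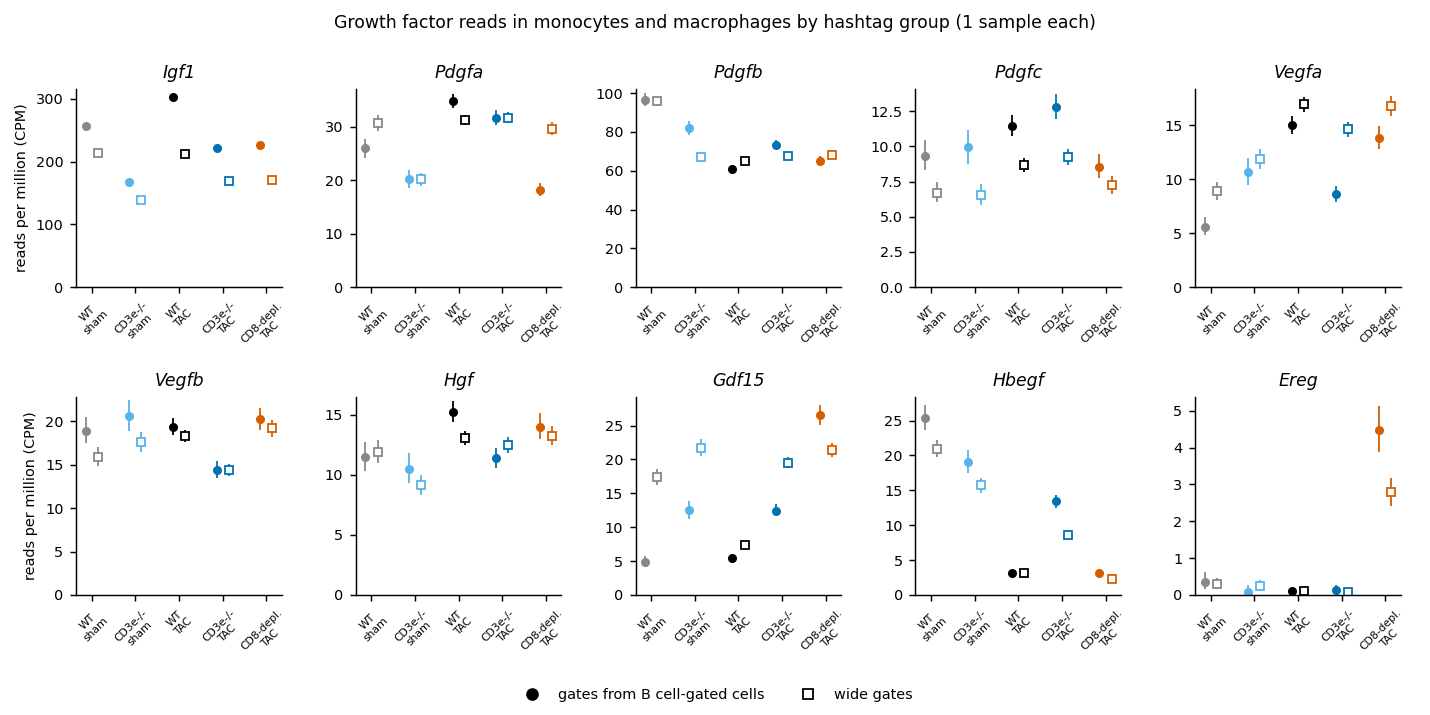
Level of each member in monocytes and macrophages by group of mice in CPM, with the 95% Poisson interval (counting error only), in the main and in the wide gate. *Igf1* runs from 167 CPM in CD3e-/- sham to 304 in WT TAC, and *Hbegf* from 25.4 CPM in WT sham to 3.14 in the TAC group labelled CD8-depleted.

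*Hbegf*, whose product is shed from the membrane and drives hypertrophic growth of cardiomyocytes, had the largest ratio between sham and TAC among the members tested in WT mice. It was at 25.4 CPM (23.7 to 27.2) in WT sham, 19.1 (17.5 to 20.8) in CD3e-/- sham, 3.16 (2.78 to 3.56) in WT TAC, 13.4 (12.5 to 14.3) in CD3e-/- TAC and 3.14 (2.65 to 3.69) in the TAC group labelled CD8-depleted. On the log2 scale WT TAC stood to WT sham at -2.67. It was past 2-fold lower in 11 of 11 other ways of processing, from -3.97 to -1.43. Among these, the changed filters on cells left the gate nearly as it was and could hardly move the ratio. *Hbegf* fell under the minimum level for a call in 2 settings, without the 5 cells of most reads and with a minimum of 50 CPM. CD3e-/- TAC stood to WT TAC at 1.79, but at 0.70 without the 5 cells of most reads, and the other ways of processing ran from -0.56 to 1.82. The reads came from 12, 12, 8, 10 and 5 cells, and 5 cells held 79.2% to 100% of them. *Hbegf* is an immediate-early gene in many cells, and a list of such genes summed to 17271 and 15563 CPM in the sham groups and 8129, 7868 and 8176 CPM in the TAC groups. That list was chosen after the values of *Hbegf* were seen, and its part in the difference was not tested. *Ereg* was at 0.0741 to 0.345 CPM in 4 groups with 4.48 CPM only in the TAC group labelled CD8-depleted, where all 208 reads lay in 2 cells.

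*Vegfa* in the gate was at 5.61 CPM (4.82 to 6.50) in WT sham, 10.7 (9.47 to 12.0) in CD3e-/- sham, 15.0 (14.2 to 15.9) in WT TAC, 8.65 (7.94 to 9.40) in CD3e-/- TAC and 13.8 (12.8 to 14.9) in TAC mice labelled CD8-depleted. WT sham was lowest. The log2 ratio of TAC to sham was 1.28 in WT and -0.27 in CD3e-/- mice. In the wide gate these were 0.86 and 0.28, so that the sign in CD3e-/- mice turned. The cells with a read numbered 6, 11, 30, 21 and 23. At the class shares of WT TAC the levels were 9.69, 9.75, 15.0, 8.0 and 12.2 CPM in the main gate and 16.2, 15.6, 17.0, 13.0 and 13.5 CPM in the wide gate, where WT sham and WT TAC were nearly level. *Vegfb* was even across the groups, at 18.9, 20.6, 19.4, 14.4 and 20.2 CPM.

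Of the PDGF ligands, *Pdgfb* was lower after TAC in WT mice without passing 2-fold. In the main gate it was at 96.7, 82.0, 60.9, 73.4 and 65.1 CPM, with both sham groups above the 3 TAC groups. In the wide gate it was at 95.9, 67.0, 65.2, 67.5 and 68.0 CPM. There CD3e-/- sham lay just below CD3e-/- TAC and the labelled CD8-depleted group. The log2 ratio of WT TAC to WT sham was -0.66 in the main gate, negative in 11 of 11 other ways of processing. At the class shares of WT TAC the levels in the main gate were 82.8, 64.5, 60.9, 77.9 and 68.7 CPM. WT sham still stood above the 3 TAC groups, while CD3e-/- sham lay below CD3e-/- TAC and the labelled CD8-depleted group. In the wide gate the same step gave 81.0, 53.3, 65.2, 74.0 and 72.7 CPM, with WT sham highest and CD3e-/- sham lowest. Within the unmarked class *Pdgfb* was at 122 and 103 CPM in the sham groups and 80.0, 88.4 and 96.4 CPM in the TAC groups. *Pdgfa* was at 25.9, 20.1, 34.8, 31.7 and 18.2 CPM. It was lowest in the labelled CD8-depleted group, with a log2 ratio to WT TAC of -0.90 but -0.07 in the wide gate. *Pdgfc* was even, at 9.31, 9.93, 11.4, 12.8 and 8.56 CPM, and *Hgf* was at 11.5, 10.5, 15.3, 11.4 and 14.0 CPM.

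*Gdf15* was at 4.92 CPM (4.18 to 5.76) in WT sham, 12.5 (11.2 to 13.9) in CD3e-/- sham, 5.40 (4.91 to 5.93) in WT TAC, 12.4 (11.6 to 13.3) in CD3e-/- TAC and 26.6 (25.1 to 28.1) in TAC mice labelled CD8-depleted. Both WT groups without antibody were lowest. The ratio of WT TAC to WT sham was 0.11 on the log2 scale, but -1.12 in the wide gate, at 7.44 against 17.4 CPM. For CD3e-/- against WT the log2 ratio was 1.19 in sham, but 0.31 in the wide gate, and 1.07 after TAC, where 8 of 11 other ways of processing kept it past 2-fold. For the labelled CD8-depleted group against WT TAC it was 2.11. These reads lay in few cells, namely 5, 8, 18, 19 and 14, and without the 5 richest cells of each group the last ratio was 0.08.

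Counted by comparison, 8 members were tested in WT TAC against WT sham, of which *Vegfa* was higher and *Hbegf* lower by 2-fold or more, beside 2.09% higher and 1.83% lower among all genes. In the wide gate *Hbegf* and *Gdf15* were lower and *Vegfa* was inside 2-fold. In CD3e-/- TAC against CD3e-/- sham none of 9 passed, beside 3.62% and 2.31%. In CD3e-/- sham against WT sham *Gdf15* was higher and none of 8 lower, beside 1.17% and 2.07%. In CD3e-/- TAC against WT TAC *Hbegf* and *Gdf15* were higher and none of 9 lower, beside 1.02% and 0.587%. In the TAC group labelled CD8-depleted against WT TAC *Gdf15* was higher and none of 8 lower, beside 0.419% and 0.353%. Against CD3e-/- TAC, *Gdf15* was higher and *Hbegf* lower among 9, beside 0.728% and 1.13%. Each of these members had its reads in 30 cells or fewer per group. The median log2 ratio of the members tested ran from -0.18 to 0.26 over the 6 comparisons and that of all genes from -0.03 to 0.05.

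**Figure D5:**
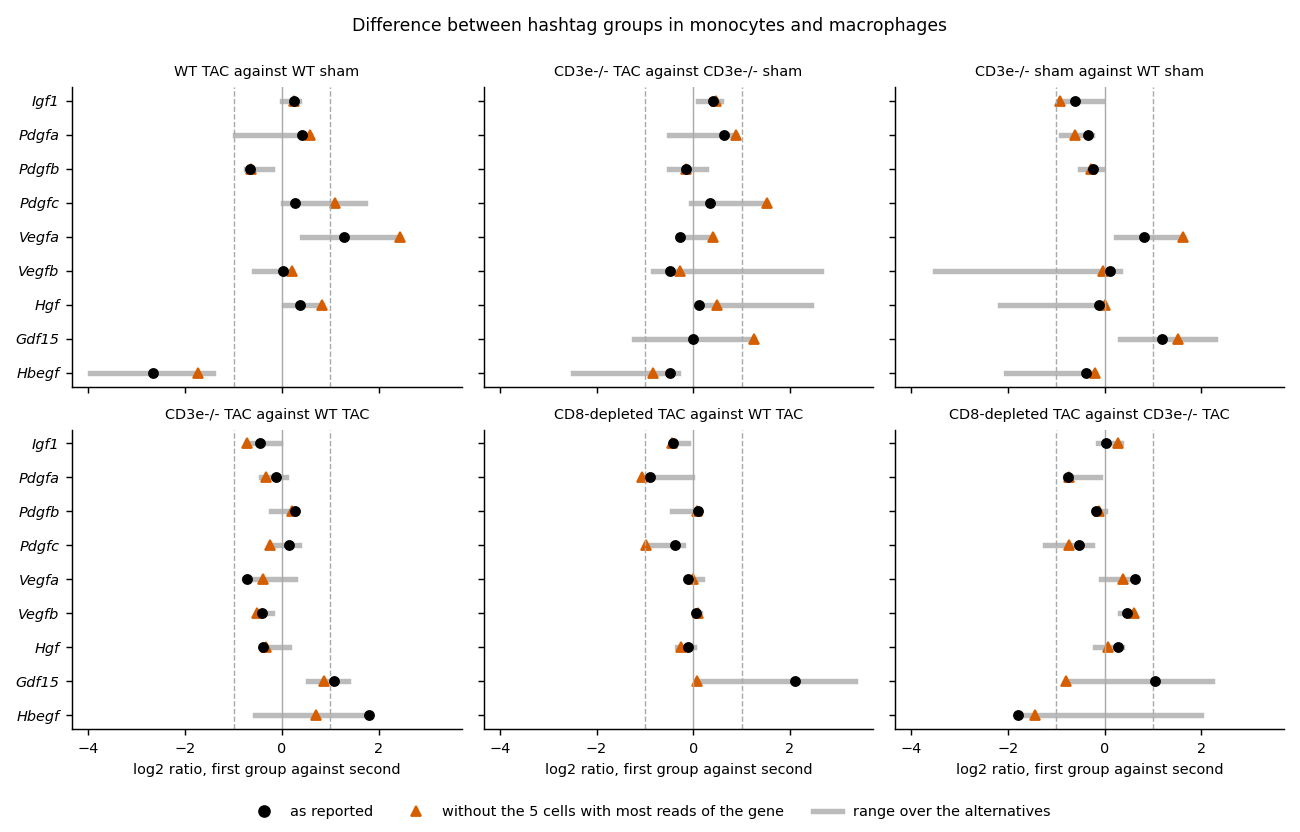
Log2 ratio of each member tested but *Ereg* in each of the 6 comparisons of groups, with 1 CPM added, with the range over 11 other ways of processing and the value without the 5 cells of most reads. *Hbegf* in WT TAC against WT sham is at -2.67 with a range of -3.97 to -1.43, and *Gdf15* in the TAC group labelled CD8-depleted against WT TAC is at 2.11 and at 0.08 without such cells.

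For each member but *Ereg*, the genes whose level was most like it were read from 35 sums of class and group that share 1 library. *Igf1* went with *Pmp22*, a membrane protein gene (Pearson r = 0.920), *Gpr34*, a receptor for lysophosphatidylserine (0.910), and *C1qa*, a complement component of macrophages (0.905). *Pdgfc* went with *Npl* (0.918) and *Gm49391* (0.901). *Vegfa* went with *Tmed2* (0.812), *Gcnt2* (0.809) and *Pkm*, a pyruvate kinase of glycolysis (0.790). *Pdgfb* went with *Pea15a* (0.878), *Nenf* (0.874) and *Cttnbp2nl* (0.872), and *Pdgfa* with *Kifap3* (0.878), *Gas2l3* (0.870) and *Dhrs3* (0.862). *Vegfb* had *Pdgfc* itself among its nearest genes (0.803), beside *Ulk2* (0.819) and *Tmem115* (0.779). *Hgf* and *Gdf15* shared *Fnip2*, a folliculin partner, as the nearest gene (0.805 and 0.715), followed by *Bri3* (0.803) and *Prkar1b* (0.792) for *Hgf* and by *4930430E12Rik* (0.692) and *Osgin1* (0.688) for *Gdf15*. *Hbegf* went with *Cxcl2* (0.719), *Cdkn1a* (0.712) and *Dusp1* (0.669).

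Other genes of the same pathways were few in the gate. Of 16 other ligands 2 or 3 reached 10 CPM in a comparison, of 15 receptors 5 to 7 and of 19 binding proteins and proteases 9 or 10. *Tgfb1* was at 307 to 326 CPM in all 5 groups. In WT TAC against WT sham *Met*, the receptor of HGF, was higher, at 11.4 against 1.79 CPM, and 0 ligands and 0 binding proteins passed 2-fold. *Met* was at 27.9 CPM in the *Ly6c2* class. In CD3e-/- TAC against CD3e-/- sham *Areg*, an EGF receptor ligand, and *Igfbp6*, which binds IGF-2 in preference to IGF-1, were higher and *Igfbp4* was lower, and 0 receptors passed. *Areg* had 16.4 CPM in CD3e-/- TAC against 6.48 in CD3e-/- sham, but its log2 ratio turned from 1.22 to -1.96 in the wide gate. *Igfbp6* had 12.4 against 0.296 CPM. In WT mice *Igfbp6* was also higher after TAC, at 7.92 against 0.659 CPM, but under the 10 CPM needed for a call. It was at 10.3 CPM in the labelled CD8-depleted group.

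*Igfbp4*, which binds and holds back IGF-1, was lowest in CD3e-/- TAC. It was at 35.1 CPM there, 147 in WT sham, 75.5 in CD3e-/- sham, 92.7 in WT TAC and 100.3 in the labelled CD8-depleted group. The log2 ratio of CD3e-/- TAC to WT TAC was -1.38, or -1.10 in the wide gate. *Igfbp4* was at 301 CPM in the *Lyve1* class against 12.1 to 99.1 CPM in the other classes of the gate, and CD3e-/- TAC had the smallest share of that class. The part of the class shares in the level of *Igfbp4* was not tested. *Areg* was also higher in CD3e-/- TAC than in WT TAC (2.53 CPM) and in the labelled CD8-depleted group (0.344 CPM), with log2 ratios of CD3e-/- TAC to WT TAC of 2.31, or 0.55 in the wide gate. No other gene of these lists passed 2-fold in a comparison between TAC groups or between sham groups.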

How the data were processed

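The matrix deposited by the authors holds counts of reads for each gene and barcode of 1 library (TAS-Seq on BD Rhapsody), after their distribution-based correction of errors. Per the labels, cutadapt 2.10, Bowtie2 2.4.2 and GRCm38 were used. Hashtags were assigned to groups from the deposited notes. Of 5363 columns, 40 marked by the authors as doublets and 8 without a hashtag were left out. The share of doublets in the authors' methods is larger than these 40 columns, so that cells with reads of several markers or members may include doublets. No other doublet caller was run, and cells of 1 hashtag caught together are not marked. As in the authors' filter, a cell needed at least 500 genes and not over 0.4 of its reads from mitochondria, which left 5263 cells. Hashtag reads and the authors' clusters were not used here.

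Reads were summed per class and group, divided by the total and given as CPM, with exact Poisson intervals, and shares of cells with exact Clopper-Pearson intervals (95%). With 1 sample per group no test was run. B cell-gated cells had at least 500 CPM of *Cd79a* and 100 CPM of *Ms4a1*. Each marker limit was the 95th percentile of these cells, at least 100 CPM. Of the gated cells 176 passed more than 1 of the markers. Python 3.11.15, numpy 2.4.6, scipy 1.17.1 and matplotlib 3.10.9 were used. The 2-fold call was checked on simulated sums of reads with known folds and counting error only. That check does not cover members whose reads lie in few cells.

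The members, marker lists and pathway lists were chosen with earlier results of these data known. The contrasts of classes, the list of immediate-early genes and the setting that drops counts under 6 reads were added after the data were seen. All 10 members were named, and of the pathway lists each gene past 2-fold, at most 4 per comparison. Nearest genes were the 3 of highest Pearson correlation of log2(CPM + 1) among genes with 20 CPM or more in a sum of at least 20 cells. Of these, 1 is not reported here.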

Additional observations from a re-analysis of the deposited data

Results flagged for a closer look

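The ratio of TAC to sham for *Vegfa* in monocytes and macrophages was 1.28 on the log2 scale in WT mice and -0.27 in CD3e-/- mice, a difference of 1.55. It drew attention because the single samples of both genotypes moved in opposite directions. The difference was not tested, since each group is 1 sample. In the wide gate the ratios were 0.86 and 0.28 and the difference was 0.58.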

How the results depend on the processing

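No paired analysis was possible because each group is 1 sample and the hashtags carry no replicate number, and for the same reason no replicate could be left out. The counts of members past 2-fold are given here for the settings that moved them by over 1.5 times. Between groups, WT TAC against WT sham had 2, and 0 without the 5 cells of most reads of each gene, 1 with 10 CPM added, 0 among genes at 50 CPM or more and 1 over all kept cells. CD3e-/- TAC against CD3e-/- sham had 0, and 3 with limits at the 99th percentile of B cell-gated cells, which left 535 cells. CD3e-/- sham against WT sham had 1, and 5 with that limit, but 0 in the wide gate, with the mean of cells, without the 5 cells, with 10 CPM added, at 50 CPM or more and over all kept cells. CD3e-/- TAC against WT TAC had 2, then 1 at the 99th percentile, in the wide gate and with the mean of cells, and 0 under the other 4 of these. The TAC group labelled CD8-depleted against WT TAC had 1, then 2 at the 99th percentile and without a filter on low values, and 0 at 50 CPM or more and over all kept cells. Against CD3e-/- TAC it had 2, then 0 in the wide gate, with the mean of cells, without the 5 cells, with 10 CPM added, at 50 CPM or more and over all kept cells. Between classes, the *Lyve1* class had 5, then 2 at the 99th percentile, 3 with the mean of cells, and 2 without the 5 cells or with 10 CPM added. The *Gpnmb* class had 6, then 2 without the 5 cells. The *Spp1* class had 1, then 2 at the 99th percentile (*Ereg* higher and *Gdf15* lower) and 2 in the wide gate, and 0 without the 5 cells or with 10 CPM added. The *Ly6c2* class had 7, then 4 with 10 CPM added. The unmarked class had 1, then 3 at the 99th percentile and 0 with 10 CPM added. The *Cd209a* class had 7, then 4 with the mean of cells and 3 with 10 CPM added. The direction reversed for *Hbegf* at the 99th percentile, to -0.56 in CD3e-/- TAC against WT TAC and 1.99 in the labelled CD8-depleted group against CD3e-/- TAC, and for *Gdf15* in the latter comparison without the 5 cells, to -0.79. Between classes, the log2 ratio reversed at the 99th percentile for *Gdf15* to -1.0 in the *Spp1* class and 0.15 in the *Ly6c2* class and for *Vegfa* to -2.73 in the *Ly6c2* class, where 20 cells were left, and to 1.52 in the unmarked class. For *Hbegf* in the *Gpnmb* class it reversed to -2.62 without the 5 cells and -3.55 among cells with exactly 1 marker. The cause of these changes was not tested. A stricter mitochondrial filter, no filter on cells, centring on the median of all genes, a total without the 50 top genes and dropping counts under 6 reads moved no count by over 1.5 times. An unchanged count can hold other members. Depth limits the rare members, *Hbegf*, *Ereg* and *Gdf15*, whose reads lie in 1 to 19 cells per group.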
